A study of Homo sapiens with 4 samples.

Results

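MHC class II high cells are the cells of these cultures that held the most transcripts of the genes for presenting antigen on MHC class II. A cell was a member when the unique molecular identifiers (UMIs, counts of single captured transcripts) of 9 genes together made up at least 40 of every 10000 UMIs of the cell. The 9 genes are HLA-DRA, HLA-DRB1, HLA-DPA1, HLA-DPB1, HLA-DQA1, HLA-DQB1, HLA-DMA, HLA-DMB and CD74, and their sum per 10000 UMIs is called the class II score here. The rule found 785 members among 16937 cells (4.63%), of which 429 were among 9081 cells of library 1 and 356 among 7856 cells of library 2. The remaining 16152 cells of the same cultures are called other cells.

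The data are droplet-based RNA counts of single cells from 12 cultures. H9, an established line of human embryonic stem cells, was turned first into monocyte-like precursors and then into microglia-like cells. Sema cultures received semagacestat, an inhibitor of the protease γ-secretase, at 2 µM for 22 h and PBS in place of lipopolysaccharide (LPS). LPS cultures received DMSO for 22 h with LPS, a bacterial signal that acts through TLR4, at 200 ng/mL for the last 6 h, and SemaLPS cultures received both agents. Ctrl cultures received DMSO and PBS. All were grown in a serum-free medium with TGF-β, IL-34 and cholesterol. Each condition had 3 cultures, numbered 1 to 3, and the meaning of the numbers is not stated in the labels. Cells of every condition were detached in the presence of actinomycin D, an inhibitor of transcription, stained with 1 hashtag antibody per culture, pooled, and divided into 2 droplet libraries. Because 1 line gave all cultures, the spread behind each p-value is that among its cultures.

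MHC class II molecules are pairs of an α and a β chain that carry peptides from engulfed proteins to the cell surface, where CD4 T cells read them. The invariant chain, encoded by CD74, fills the groove of new pairs until HLA-DM exchanges its last fragment for a peptide, and HLA-DO restrains HLA-DM. Class II genes are switched on together by the coactivator CIITA, which binds no DNA itself but docks on the RFX and NF-Y proteins at a shared promoter module. In the healthy brain most microglia carry little class II, and its level on them is a widely used sign of activation.

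Letters of the shared module can be read in the promoters of some class II genes. Of 14 class II genes looked up in the RefSeq promoter table (build GRCh38.p14, 250 bases before to 50 bases after the start), 12 had an entry. The letters TGATGA, found in the X box where RFX and CREB proteins bind, were searched on the promoter's own strand, and ATTGG, the core of the Y box where NF-Y binds, on either strand (CCAAT on the other). The motifs were chosen after these promoters had been read. Among all 35116 promoters of the table, 2067 (5.89%) held TGATGA, 12155 (34.6%) held ATTGG, and 100 (0.285%) held ATTGG at most 30 bases after TGATGA. Of the 12 class II promoters, 11 held the second motif and 5 held both at that spacing. Those of HLA-DRB1, HLA-DMA and CD74 are shown because they are the rule genes whose promoters held both at that spacing. The promoters of the rule genes HLA-DPA1, HLA-DPB1, HLA-DQA1, HLA-DQB1 and HLA-DMB did not, and HLA-DRA had no entry. That of HLA-DRB5 is shown because it is the nearest relative of HLA-DRB1, and those of HLA-DOA and HLA-DOB because HLA-DOA rose in members and its partner HLA-DOB had too few transcripts to test. Each stretch has 70 bases, lies on the minus strand and is written 5′ to 3′, with the motifs in capitals, at chr6:32589875-32589944 for HLA-DRB1, chr6:32530358-32530427 for HLA-DRB5, chr6:32953157-32953226 for HLA-DMA, chr5:150412944-150413013 for CD74, chr6:33009639-33009708 for HLA-DOA and chr6:32817081-32817150 for HLA-DOB.
HLA-DRB1: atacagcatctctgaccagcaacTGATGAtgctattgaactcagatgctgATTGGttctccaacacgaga
HLA-DRB5: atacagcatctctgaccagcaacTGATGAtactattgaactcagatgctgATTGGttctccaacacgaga
HLA-DMA: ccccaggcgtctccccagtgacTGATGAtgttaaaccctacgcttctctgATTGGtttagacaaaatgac
CD74: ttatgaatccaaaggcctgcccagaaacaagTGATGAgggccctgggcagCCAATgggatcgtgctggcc
HLA-DOA: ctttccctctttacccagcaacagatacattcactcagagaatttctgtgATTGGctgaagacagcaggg
HLA-DOB: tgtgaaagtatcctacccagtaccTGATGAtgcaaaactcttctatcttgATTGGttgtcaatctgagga
A match says only that these letters are present, and binding was not measured.

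The score formed a continuous tail around the threshold, so the members are a range of cells, and whether they hold a separate type was not tested. Their median score was 52.9 and the highest was 352.3, against a median of 5.02 in other cells, and 46 members reached 100 or more. Just inside the threshold the lowest member had 40.0, and just outside it the highest other cell had 39.98. In all, 324 members scored between 40 and 50, and 654 other cells scored between 30 and 40. Members were slightly shallower than other cells, with medians of 27093 against 30176 UMIs and 4702 against 5040 genes per cell, and similar in mitochondrial UMIs (8.07% against 8.13%). Cells above 60000 UMIs made up 1.66% of members and 3.24% of other cells. The files' barcode sequences include 91 that occur in both libraries, of which 24 were kept in both, and 2 members carried such a sequence.

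The values that chose the members are given as a description, with no test. CD74, the invariant chain, averaged 21.0 ± 1.12 UMIs per 10000 in members and 4.27 ± 0.437 in other cells (SD, n = 12 cultures). HLA-DRA, the α chain of HLA-DR, averaged 13.3 ± 2.17 in members and 1.01 ± 0.210 in other cells, and its partner HLA-DRB1 averaged 6.40 ± 0.704 in members and 0.946 ± 0.109 in other cells. The HLA-DP pair followed the same order, HLA-DPA1 with 4.62 ± 0.380 in members and 0.276 ± 0.0451 in other cells and HLA-DPB1 with 3.41 ± 0.301 in members and 0.230 ± 0.0413 in other cells. All 9 genes were detected in 566 members (72.1%) and in 5.16% of other cells, and 8 of 9 in another 187 members (23.8%). HLA-DQA1, which pairs with HLA-DQB1, was the gene missing most often, with no UMI in 133 members. Of the markers behind the name, HLA-DRA and CD74 were detected in every member, HLA-DPA1 was missing from 11 and HLA-DPB1 from 17.

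**Figure D1:**
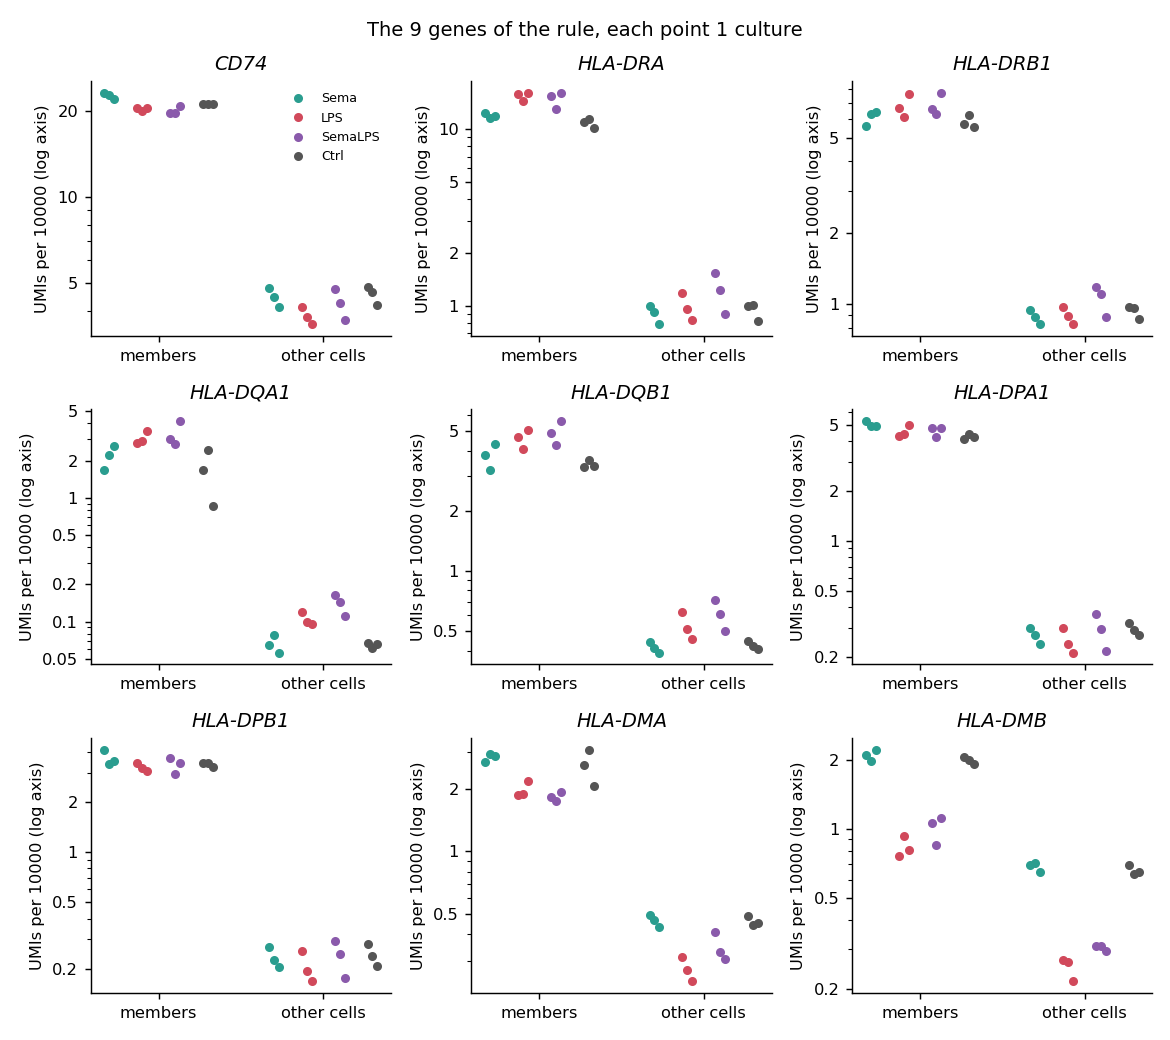
UMIs per 10000 of the 9 genes of the rule (log axis) in members, left, and other cells, right, with 1 point per culture coloured by condition. CD74 averaged 21.0 in members and 4.27 in other cells, and HLA-DMB was lower in the LPS-treated cultures on both sides.

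The mixture of class II transcripts within members differed between cultures with and without LPS. HLA-DMB, the β chain of the peptide exchanger HLA-DM, had 0.764, 0.890 and 1.11 UMIs per 10000 (lowest, median and highest of 6 cultures) in members of LPS and SemaLPS cultures, against 1.91, 2.03 and 2.22 in members of Ctrl and Sema cultures. The groups did not overlap, and in other cells HLA-DMB was likewise lower with LPS, between 0.216 and 0.309 against 0.633 to 0.712. HLA-DRA went the other way, with 13.01, 15.6 and 16.1 in members with LPS and 10.2, 11.5 and 12.3 in members without, again without overlap. HLA-DQA1 was also higher with LPS, between 2.74 and 4.18 against 0.866 to 2.61, and likewise in other cells, between 0.0948 and 0.163 against 0.0558 to 0.0786. CD74 was lower, between 19.6 and 20.8 with LPS and between 21.0 and 23.1 without, so these groups were separate by a small margin. HLA-DPA1, HLA-DPB1, HLA-DRB1, HLA-DQB1 and HLA-DMA overlapped in members. In other cells HLA-DQB1 was higher and HLA-DMA lower with LPS without overlap, and HLA-DRA, CD74, HLA-DRB1, HLA-DPA1 and HLA-DPB1 overlapped. How many of all genes separate in this way was not counted, while LPS against Ctrl changed 26.9% of the genes tested within members. Since the sum of these genes chose the cells, their shares within it are a description.

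No difference in the share of members between treatments passed the test, while the shares followed the numbers of the cultures. Members made up 5.90, 4.92 and 2.83% of the cells in Sema cultures 1, 2 and 3, 5.21, 3.07 and 2.86% in LPS cultures, 8.15, 4.40 and 4.16% in SemaLPS cultures, and 6.90, 4.06 and 3.58% in Ctrl cultures. Culture 1 had the highest share in every condition, and the conditions overlapped. The means were 4.55 ± 1.57% for Sema, 3.71 ± 1.30% for LPS, 5.57 ± 2.24% for SemaLPS and 4.85 ± 1.79% for Ctrl (SD, n = 3 each), while the 4 cultures numbered 1 averaged 6.54% and those numbered 2 and 3 averaged 4.11 and 3.36%. The exact 95% binomial interval of a single culture, which covers counting error only, ran from 2.02 to 3.92% for LPS-3 and from 6.82 to 9.64% for SemaLPS-1. Cultures with LPS differed from those without by −0.059 percentage points (exact permutation test, two-sided, p = 0.959, 6 against 6 cultures), and the share was higher with LPS in 2 of 6 pairs of equal number and inhibitor. That mean joins opposite moves, since LPS cultures lay below Ctrl cultures at every number while SemaLPS lay above Sema at numbers 1 and 3. Cultures with semagacestat differed from those without by 0.779 points (exact permutation test, two-sided, p = 0.433), with a higher share in 4 of 6 pairs. SemaLPS lay above LPS at every number, and Sema lay above Ctrl at number 2 only. Whether the effect of 1 treatment on the share depended on the other was not tested. The smallest p this design allows is 0.00216.

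**Figure D2:**
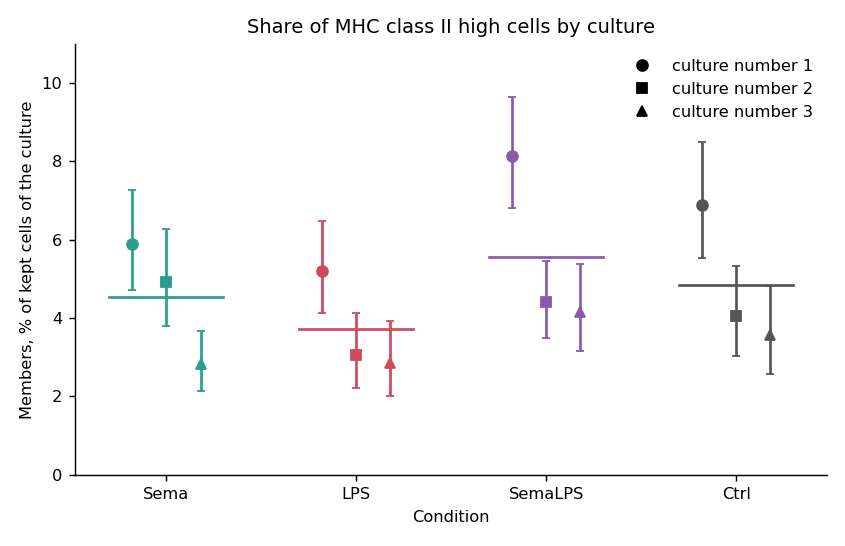
Share of members among the kept cells of each culture, in percent, by condition, with 1 symbol per culture number, exact 95% binomial intervals as bars and the condition mean as a line. The cultures numbered 1 sit between 5.21 and 8.15%, above the others of their condition.

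Members were then compared with other cells of the same culture over all genes that the rule did not use. UMIs were summed per culture and class and scaled to CPM (UMIs per 1e+06, by TMM) without the 9 rule genes, and edgeR's quasi-likelihood test with the culture as a block was adjusted by the Benjamini-Hochberg method. Members expressed more CIITA, RUNX3, complement C1q genes and the CD1 genes CD1A, CD1C and CD1E, and less of the metalloproteinase MMP7, of CHI3L1, of osteopontin (SPP1) and of lipid-handling and cell cycle genes. Of 14881 genes tested, 580 were higher in members (3.9%) and 1443 were lower (9.7%), 13.6% in all, at an adjusted p below 0.05. These shares are the background for the counts of each gene list below. The median log2 fold change of members over other cells was −0.065 over all tested genes. Changes beyond 2-fold were fewer, with 42 genes higher and 232 lower, and 153 genes (1.03%) were higher and 382 (2.57%) lower in members in all 12 cultures. Within 1 condition, members differed from other cells in 417 genes in Sema cultures (2.8% of those tested, 0.927% higher and 1.87% lower), in 712 in LPS (4.78%, 1.91% higher and 2.88% lower), in 617 in SemaLPS (4.15%, 1.78% higher and 2.37% lower) and in 455 in Ctrl cultures (3.06%, 1.03% higher and 2.02% lower). The split between directions depended on the scaling. DESeq2's size factors moved the median fold change up by 0.043 and gave 957 higher and 1044 lower calls, so that 47.8% of calls were higher, against 28.7% with the scaling used here. All 580 genes called higher stayed so, as did 1044 of the genes called lower.

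**Figure D3:**
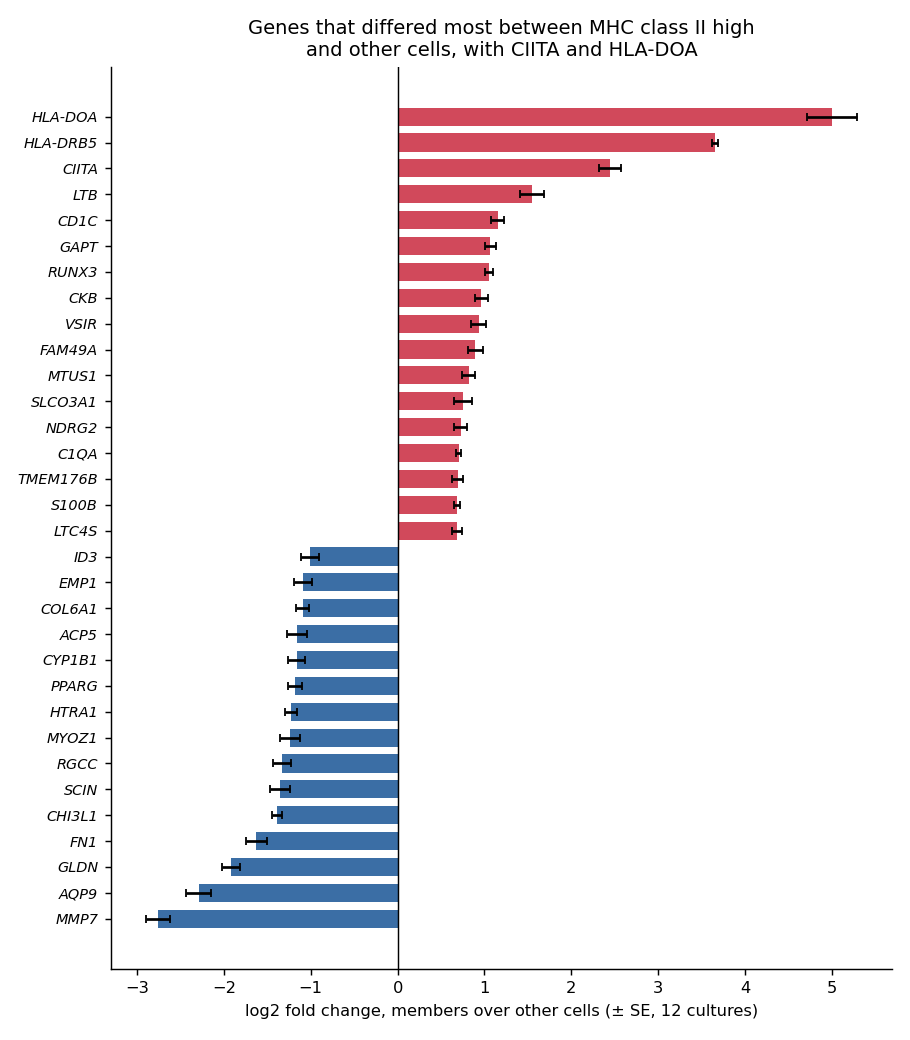
Log2 fold change of members over other cells (bars, with SE, 12 cultures) for the 15 largest rises and 15 largest falls chosen by the naming rule, with CIITA and HLA-DOA. HLA-DOA at 5.00 and HLA-DRB5 at 3.65 lead the rises, and MMP7 at −2.76 leads the falls.

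CIITA, the coactivator that class II genes depend on (chr16:10866222-10943021, plus strand, GENCODE v29 on GRCh38), rose in members. Its lowest, median and highest level over 12 cultures was 10.7, 15.8 and 23.3 CPM in members and 1.96, 3.19 and 4.07 CPM in other cells, so the classes did not overlap. The log2 fold change was 2.45 (SE 0.127, edgeR adjusted p 5.87e-21), and a CIITA UMI was found in 29.6% of members and 7.29% of other cells. The effect was similar in each condition, between 2.31 and 2.70, and its change with LPS did not pass (0.12, SE 0.230, edgeR adjusted p 0.948).

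Of the other class II genes, HLA-DOA and HLA-DRB5 rose in members. HLA-DOA, the α chain of HLA-DO, had 2.53, 6.23 and 10.7 CPM in members and 0.0730, 0.167 and 0.299 CPM in other cells. Its fitted log2 fold change was 5.00 (SE 0.287). The filter on low counts kept a gene that was high enough in either class, and HLA-DOA passed it only through its level in members. The filter thus favoured a rise, and the values are given as a description. The levels of HLA-DOA rest on few transcripts, 134 UMIs in 104 members (13.2%) against 91 UMIs in 0.539% of other cells. Its partner HLA-DOB had 1 UMI in members and 11 in other cells, too few to test, although its promoter holds both motifs shown above and that of HLA-DOA only the second. HLA-DRB5, a second β chain for HLA-DR, had 558.3, 631.1 and 690.1 CPM in members and 40.9, 49.8 and 65.9 CPM in other cells (log2 fold change 3.65, SE 0.037). It shares sequence with HLA-DRB1, whose reads can be counted under it, so its rise is not independent of the rule. HLA-DQA2 averaged 25.8 ± 23.9 CPM in members and 24.7 ± 21.8 CPM in other cells and did not pass. Within members it averaged 50.6 ± 24.1 CPM in LPS cultures and 3.42 ± 1.47 CPM in Ctrl cultures (SD, n = 3), a change of 3.84 (SE 0.410, edgeR adjusted p 3.14e-07). It shares sequence with the rule gene HLA-DQA1, so its counts are uncertain too. Of the 8 genes of this list, 3 were tested and 2 rose, HLA-DRB5 not independently of the rule and HLA-DOA not independently of the filter.

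Most tested partners of CIITA did not pass. Of 14 tested regulators of class II, 4 rose (CIITA, RFX5, SPI1 and PRDM1) and 1 fell, against 3.9% of all genes higher and 9.7% lower, with a median log2 fold change of −0.02. RFX5, the DNA-binding subunit of RFX, had 10.1, 12.6 and 14.4 CPM in members and 7.48, 9.38 and 10.98 CPM in other cells, a rise of 0.43 (SE 0.103, edgeR adjusted p 0.00181) seen in 11 of 12 cultures. With either library alone, with a threshold of 60, or without the 4 cultures numbered 1, the RFX5 difference no longer passed (0.37 without those cultures). SPI1, the myeloid factor PU.1, rose by 0.13 (SE 0.031) and was higher in members in 12 of 12 cultures, and without the cultures numbered 1 or with library 1 alone it did not pass (0.10 and 0.11). PRDM1, a repressor of CIITA in plasma cells, rose by 0.20 (SE 0.066, edgeR adjusted p 0.0365), a call that was lost on leaving out any of 6 cultures in turn (Ctrl-1, LPS-1, Sema-2, LPS-2, SemaLPS-2 or Sema-3). RFXANK, RFXAP, NFYA, NFYB, NFYC, CREB1, IRF1, IRF8 and BCL6 did not pass.

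No interferon response gene of either list rose. Of 12 tested genes of the interferon-γ response, 0 rose and 2 fell, FCGR1A among them, against 9.7% of all genes lower, with a median of −0.30. Of 22 type I interferon genes, 0 rose and 4 fell (IFI6, ISG15, LY6E and OAS1), with a median of −0.35, and DESeq2's size factors kept the falls of LY6E and OAS1 only. The summed level of these 22 genes was 107.3, 157.1 and 1185 CPM (lowest, median and highest of 12 cultures) in members and 196.6, 232.5 and 538.4 CPM in other cells, and it was higher in members in 2 of 12 cultures. ISG15 had 30.3, 25.2 and 213.4 CPM in members of LPS cultures 1, 2 and 3 and 58.6, 41.8 and 131.6 CPM in their other cells, so LPS-3 stood apart in both classes. In LPS-3 only 5 of 37 members had a top hashtag of at least 10 times the next. FCGR1A, the high-affinity IgG receptor, had 63.6, 120.4 and 150.7 CPM in members and 127.9, 147.4 and 165.1 CPM in other cells and was lower in members in 11 of 12 cultures (−0.34, SE 0.048). MHC class I genes moved slightly upward, with 9 of 21 tested genes higher, 0 lower and a median of 0.12 (14 higher and 0 lower with DESeq2's size factors). HLA-B rose by 0.40 (SE 0.036) and β2-microglobulin (B2M) by 0.13 (SE 0.025), each in 12 of 12 cultures, and with library 2 alone B2M did not pass.

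Genes that process antigen for class II were more often lower than higher. Of 19 tested, 3 rose (CST3, CTSH and CTSS) and 9 fell, with a median of −0.14, against 3.9% of all genes higher and 9.7% lower. CTSS, the protease that trims the invariant chain, had 535.6, 630.0 and 724.2 CPM in members and 508.2, 578.9 and 638.3 CPM in other cells, a rise of 0.12 (SE 0.029, edgeR adjusted p 0.00125) that did not pass at a threshold of 60, with library 2 alone, without cells carrying a UMI of MMP7, TIMP3, FBP1 or CRABP2, or without the 4 cultures numbered 1 (CTSS was named after its values were seen). CST3, cystatin C, an inhibitor of such proteases, rose by 0.48 (SE 0.030) in 12 of 12 cultures. CSTB, a cytosolic protease inhibitor, fell by 0.43 (SE 0.030) and the tetraspanin CD9 by 0.35 (SE 0.035). In the lysosome list 3 of 21 genes rose and 10 fell, with a median of −0.11, and DESeq2's size factors gave 4 rises and 5 falls. The proteases CTSL and CTSD and the lipase LIPA, which frees cholesterol, fell by 0.43, 0.25 and 0.34 and were lower in members in every culture.

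Costimulation was uneven. Of 17 tested ligands and checkpoint genes, 4 rose (CD40, CD83, CD86 and VSIR) and 2 fell (CD276 and LGALS9), with a median of 0.10, against 3.9% of all genes higher and 9.7% lower. VSIR, which encodes the T cell inhibitor VISTA, had 7.89, 31.5 and 69.5 CPM in members and 5.399, 17.5 and 36.4 CPM in other cells and rose by 0.94 on the log2 scale (SE 0.086, edgeR adjusted p 2.66e-12). CD86, a main activating ligand of T cells, had 32.2, 51.3 and 63.7 CPM in members and 28.8, 38.7 and 45.0 CPM in other cells, a rise of 0.42 (SE 0.058). Both were higher in members in every culture although the ranges overlapped. LGALS9, galectin-9, fell by 0.29 (SE 0.037). The CD83 call was lost on leaving out any of 5 cultures in turn (Sema-1, LPS-1, LPS-3, SemaLPS-3 or Ctrl-3), and the gene was named after its values were seen.

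Markers of dendritic cells, the cells best known for class II, were partly raised in members, against 3.9% of all genes higher and 9.7% lower. Of 17 tested genes, 9 rose (AXL, CCR6, CD1A, CD1C, CD1E, CD207, CLEC10A, LAMP3 and ZBTB46) and 3 fell (CCL22, ITGAX and SIRPA), with a median of 0.36, and the list's summed level ran from 370.2 to 555.1 CPM in members and from 311.9 to 430.3 CPM in other cells. CD1C, which presents lipids, had 16.0, 50.5 and 93.7 CPM in members and 14.5, 22.8 and 32.3 CPM in other cells and rose by 1.15 (SE 0.079, edgeR adjusted p 1.99e-16) in 12 of 12 cultures. CD1E, which helps to load CD1 molecules, rose by 1.09 (SE 0.098) in 11 of 12. The defining genes FLT3, CLEC9A, XCR1 and CLEC4C had no UMI in any member, and 0 of 785 cells, pooled over cultures, allows a share of up to 0.382% with a UMI. They had only 5, 6, 1 and 0 UMIs in all other cells, so their absence does not set members apart. FCER1A, also on the list, had 4 UMIs in members and 5 in other cells, too few to test. CCR6, the receptor for CCL20, rested on 78 UMIs in 44 members (5.61%, against 0.991% of other cells) and rose by 3.20 (SE 0.341), but with library 1 alone it did not pass (0.77). CD207, langerin, rested on 182 UMIs in 22 members, 104 of them in a single cell of culture Sema-3, and was named after its values were seen. With at most 0.492 CPM in other cells, CD207 passed the filter on low counts only through members, so the filter favoured its place among the 9 rises. Its fitted log2 fold change of 5.45 fell to 4.51 without Sema-3, was 4.84 without LPS-1, and did not pass with library 1 alone. The LAMP3 call was lost without Sema-3 or Ctrl-2, and with library 1 alone its difference was −0.12. Whether these transcripts mark a separate cell type was not tested.

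Markers of other lineages were mostly low or lower in members, LTB and HPGDS being higher. Of 8 B cell genes 1 was deep enough to test and did not pass. MS4A1 had 1 UMI in members and 0 in other cells, CD79A had 6 in members and 90 in other cells, and CD79B had 0 in members and 13 in other cells. The summed B cell level was 0 to 1.95 CPM in members and 0.781 to 1.88 CPM in other cells. Monocyte genes were lower, with 1 of 13 higher (LTB), 7 lower and a median of −0.24, against 3.9% of all genes higher and 9.7% lower. Border and perivascular macrophage genes were lower in 4 of 10 and higher in 0, with CD163, a haemoglobin scavenger receptor, down by 0.48 (SE 0.056) and MRC1, the mannose receptor, by 0.48 (SE 0.058) in 12 of 12 cultures, and PF4 and LYVE1 had no UMI in members. Of the T or NK cell list 1 of 3 tested genes fell (NKG7, not with DESeq2's size factors), of the endothelial or stromal list 4 of 6 fell, of the pluripotent or neural list 1 of 3 fell (TUBB3), and the single tested mast cell gene, HPGDS, rose by 0.14 (SE 0.045). The summed mast cell level was 49.7 to 248.4 CPM in members and 48.7 to 185.1 CPM in other cells and higher in members in 10 of 12 cultures, with no UMI of GATA2, CPA3, MS4A2, HDC or CLC in members. The single tested granulocyte and erythroid genes did not pass. Fewer cells of a type and less RNA per cell cannot be told apart in such sums. With 785 members against 16152 other cells, the absence of a rare transcript from members does not set them apart.

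More homeostatic microglia genes were higher than lower in members, against 3.9% of all genes higher and 9.7% lower. Of 22 tested homeostatic microglia genes, 10 rose, 4 fell, CRYBB1, ITGAM and TREM2 among them, and the median was 0.11, with a summed level of 6504 to 8707 CPM in members and 5322 to 6719 CPM in other cells. C1QA, a subunit of complement C1q, had 645.5, 778.9 and 1090 CPM in members and 396.3, 501.2 and 653.5 CPM in other cells and rose by 0.70 (SE 0.029, edgeR adjusted p 1.23e-24), and C1QB rose by 0.43 (SE 0.027), each in 12 of 12 cultures. AIF1, the microglial marker IBA1, had 881.7, 1074 and 1297 CPM in members and 649.7, 756.2 and 910.7 CPM in other cells and rose by 0.51 (SE 0.028). P2RY12, a homeostatic receptor, averaged 17.6 ± 14.4 CPM in members and 16.6 ± 12.9 CPM in other cells, TMEM119 averaged 1.90 ± 1.03 CPM in members and 1.67 ± 0.407 CPM in other cells, and neither passed. Both were named after their values were seen, as a check of the labelled cell type. SALL1, a defining factor of microglia, had no UMI in members, where 0 of 785 cells allows a share of up to 0.382% with a UMI. P2RY13, a purinergic receptor related to P2RY12, rose by 0.73, a call that was lost without LPS-1 (the gene was named after its values were seen).

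Outside the lists, RUNX3, a transcription factor of T cells and tissue myeloid cells, had 112.8, 169.8 and 238.6 CPM in members and 56.9, 80.4 and 107.5 CPM in other cells, without overlap, and rose by 1.06 (SE 0.046, edgeR adjusted p 8.89e-24). LTB, a TNF family cytokine of lymphoid tissue and the only riser of the monocyte list, had 7.55, 40.2 and 131.3 CPM in members and 5.34, 15.2 and 45.5 CPM in other cells, rose by 1.55 (SE 0.136) and was higher in members in every culture. Of its 1442 UMIs in members 300 lay in 3 cells, a UMI was found in 31.6% of members and 24.9% of other cells, and with library 1 alone its 0.52 did not pass. S100B, a calcium-binding protein best known from astrocytes, had 203.8, 305.7 and 387.4 CPM in members and 149.6, 186.1 and 224.5 CPM in other cells and rose by 0.69 (SE 0.035). GAPT, an adaptor of B cells and myeloid cells, rose by 1.07 (SE 0.062), CKB, the brain creatine kinase, by 0.97 (SE 0.073), MTUS1 by 0.82 and NDRG2 by 0.73. FAM49A, SLCO3A1, TMEM176B and LTC4S, the enzyme that makes leukotriene C4, rose by 0.89, 0.75, 0.69 and 0.68. S100B and the 8 genes after it were each higher in members in 12 of 12 cultures, and SLCO3A1 did not pass with library 1 alone.

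MMP7, a secreted metalloproteinase, fell furthest among the genes named by size. It had 8.96, 22.4 and 87.2 CPM in members and 74.7, 237.8 and 377.6 CPM in other cells (log2 fold change −2.76, SE 0.136, edgeR adjusted p 1.15e-21) and was lower in members in every culture. MMP7 was listed with TIMP3, FBP1 and CRABP2, called the MMP7 group here, and whether these genes mark a separate subset of cells was not tested. All 4 genes fell, with a median of −2.43. A UMI of the 4 was present in 43.1% of members and 53.1% of other cells, while 1.66% of members and 6.53% of other cells had 10 or more per 10000 UMIs. Leaving out every cell with such a UMI is therefore a broad cut. When all cells with such a UMI were left out, 862 genes were called in place of 2023, 769 of them the same. That step removed 43.1% of members, and either library alone also gave fewer calls. What part of the drop came from fewer cells was not tested. CHI3L1, the chitinase-like protein YKL-40, had 63.0, 148.5 and 285.0 CPM in members and 181.3, 378.0 and 675.1 CPM in other cells and fell by 1.38 on the log2 scale (SE 0.057), and by 0.79 without those cells. RGCC, GLDN, HTRA1, CYP1B1, SCIN, MYOZ1 and ID3 fell by between 1.01 (ID3) and 1.92 (GLDN) in all 12 cultures. Without the cells that carried the 4 genes, AQP9, a water and glycerol channel, fell by 1.16 in place of 2.29 and FN1, fibronectin, by 0.83 in place of 1.62, while the falls of COL6A1 (−1.09) and of ACP5 (−1.16) did not pass (−0.08 and −0.43).

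Genes of disease-associated and lipid-laden microglia were lower, against 3.9% of all genes higher and 9.7% lower. Of 22 disease-associated genes tested, 18 fell and 2 rose (AXL and TYROBP), with a median of −0.33 and a summed level of 35400 to 56510 CPM in members and 51280 to 69230 CPM in other cells. SPP1, osteopontin, had 21110, 26450 and 34710 CPM in members and 31980, 39560 and 46610 CPM in other cells and fell by 0.54 on the log2 scale (SE 0.027, edgeR adjusted p 3.05e-21) in 12 of 12 cultures. LPL, lipoprotein lipase, had 75.9, 184.2 and 346.8 CPM in members and 148.6, 318.1 and 475.1 CPM in other cells and fell by 0.85 (SE 0.042). Of 18 lipid genes, 11 fell and 0 rose, with a median of −0.32. APOC1 fell by 0.56 (SE 0.032) and APOE, the main lipid carrier of the brain, by 0.31 (SE 0.029, named after its value was seen). PPARG, a lipid-sensing receptor, had 5.13, 16.8 and 28.2 CPM in members and 19.5, 33.7 and 55.3 CPM in other cells and fell by 1.18 (SE 0.082). All 5 were lower in members in every culture. With DESeq2's size factors the count of falls in both lists was the same, and 2 lipid synthesis genes, SCD and SREBF1, were called higher.

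Cell cycle genes were lower in members. Of 20 S phase genes, 16 fell and 0 rose (median −0.32), and of 20 G2 and mitosis genes, 13 fell and 0 rose (median −0.48), against 9.7% of all genes lower and 3.9% higher. DESeq2's size factors gave 12 falls in the S phase list and 11 in the G2 and mitosis list, and 0 rises in either. CDK1, the mitotic kinase, had 5.06, 26.3 and 53.3 CPM in members and 28.5, 39.5 and 56.0 CPM in other cells and fell by 0.66 (SE 0.086), lower in members in every culture. Cells with at least 10 cell cycle UMIs per 10000 made up 12.7% of members and 16.4% of other cells, while the medians were alike at 3.11 and 3.16. Without these cells, 1876 genes were called in members against other cells. In that setting RRM2, FEN1 and TOP2A lost their calls and the difference of TYMS turned. With no replicate block TYMS, RRM2, FEN1 and TOP2A all lost their calls, while CDK1 kept its call in every setting. Of 12 Fc and complement receptors, 3 rose and 8 fell, the rise of FCGR2B being lost without Sema-1, Sema-3, SemaLPS-2 or Ctrl-2 (FCGR2B was named after its values were seen), with VSIG4, a complement receptor, down by 0.32 (SE 0.042) and ITGAX down by 0.41 (SE 0.061). NF-κB and cytokine genes were mixed, with 3 of 28 higher, 7 lower and a median of −0.18. EBI3, a subunit of IL-27 and IL-35, rose by 0.58 (SE 0.092) in 12 of 12 cultures, and CCL3 fell by 0.19 (SE 0.030), which did not pass in cells of 20000 to 50000 UMIs or with a stricter hashtag rule. Immediate-early and heat shock genes fell in 4 of 17 and rose in 0 (median −0.09), Notch targets had 1 rise (MYC) and 1 fall (HES4) of 10, and glycolysis genes 1 rise (HIF1A) and 2 falls (BNIP3 and HK2) of 15. The Notch and glycolysis counts lay near the shares of all genes. Of 13 mitochondrial transcripts 4 fell, by 0.09 at most, and with DESeq2's size factors none of them did and 2 others rose.

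Expression followed the score across all cells, not only at the threshold. Cells were put into 6 ranges of the score, and since the score defines both the ranges and the members this is a description. CIITA averaged 1.22 CPM in cells that scored under 5, 2.63 at 5 to 10, 4.91 at 10 to 20, 8.86 at 20 to 40 and 27.7 at 80 or more (12 cultures). RUNX3 averaged 63.6 CPM in the lowest range and 240.2 CPM in the highest, CD1C 16.2 and 74.2 CPM, and C1QA 405.5 and 1054 CPM. Most of the drop of MMP7 lay at the low end, and CHI3L1, FN1 and GLDN also had their largest step there. MMP7 averaged 371.3 CPM under a score of 5 and 89.0 CPM already at 5 to 10, then 12.2 CPM in the highest range, while SPP1 averaged 42730 CPM in the lowest and 20870 CPM in the highest. The highest range held 106 cells in all and as few as 2 in a culture, against 8053 in the lowest.

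**Figure D4:**
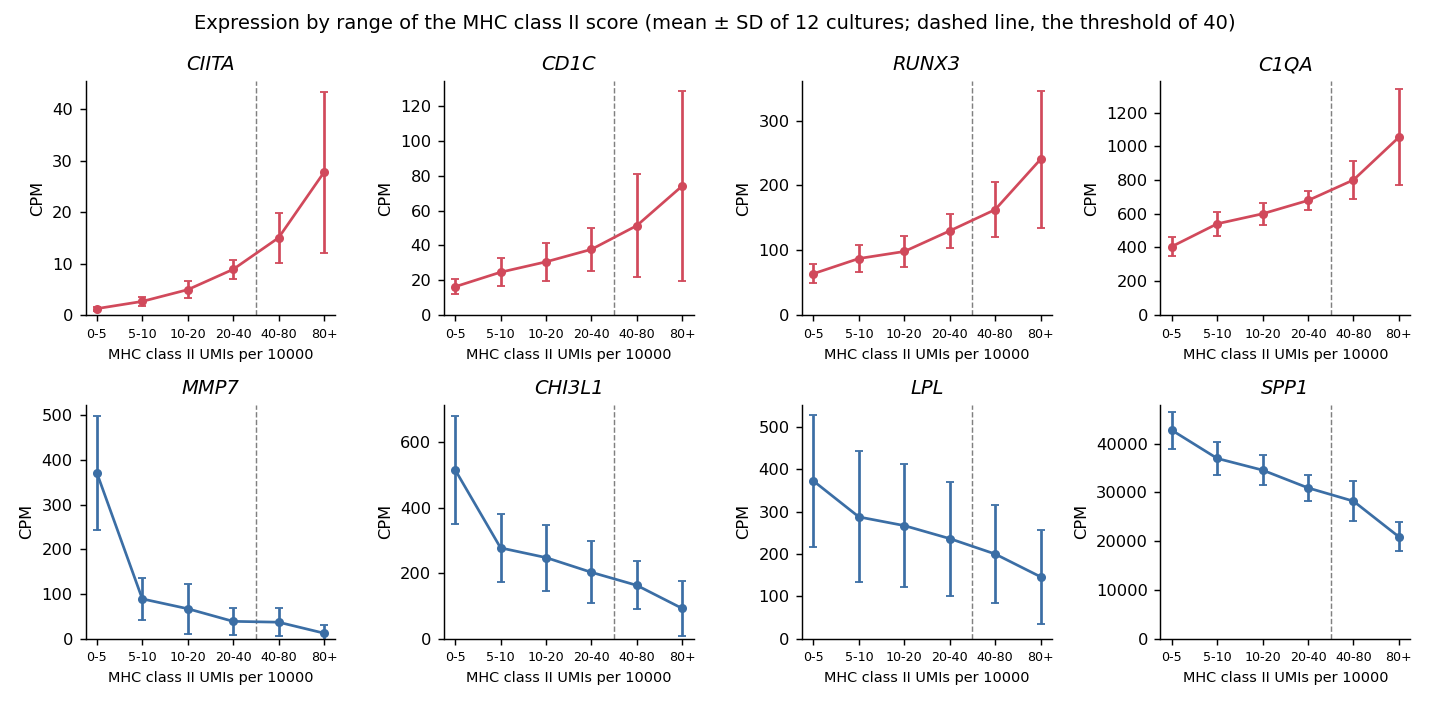
Mean CPM of 8 genes (points, with the SD over 12 cultures) by range of the class II score, with the membership threshold of 40 dashed. CIITA, CD1C, RUNX3 and C1QA climb from range to range, and MMP7 drops from 371.3 to 89.0 CPM between the first and second ranges.

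A change with LPS in how members differ from other cells was tested for every gene in the same fit. The difference changed for 141 of 14881 genes (0.948%), 70 upward (0.47%) and 71 downward (0.477%). Without LPS, members had less IL1RN, CXCL8, S100A9 and TNFAIP6 than other cells, and with LPS the levels of both classes were close. IL1RN, the natural blocker of IL-1 receptors, had 275.5, 181.4 and 233.4 CPM in members of LPS cultures 1, 2 and 3 against 285.0, 228.4 and 335.3 CPM in their other cells, and 5.12, 6.18 and 11.8 CPM in members of Ctrl cultures against 25.8, 57.7 and 71.5 CPM in their other cells. The Ctrl classes did not overlap and the LPS classes did. Its member difference was thus −0.28 on the log2 scale in LPS and −0.13 in SemaLPS cultures, against −1.60 in Sema and −2.71 in Ctrl cultures, a change of 1.95 with LPS (SE 0.161, edgeR adjusted p 4.96e-12). Among cells with no UMI of MMP7, TIMP3, FBP1 or CRABP2 the change of IL1RN was 0.08 and did not pass.

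CXCL8 and S100A9 moved the same way. CXCL8, which draws neutrophils, had 1270, 1048 and 1340 CPM in members of LPS cultures against 1265, 1072 and 1095 CPM in their other cells, and 21.3, 19.9 and 26.2 CPM in members of Ctrl cultures against 46.5, 51.0 and 40.1 CPM in their other cells. Its difference changed by 0.90 (SE 0.133, edgeR adjusted p 2.23e-05) and did not pass with library 2 alone, with a stricter hashtag rule, in cells of 20000 to 50000 UMIs or by DESeq2. S100A9, a subunit of calprotectin, changed by 0.75 (SE 0.093), TNFAIP6, which binds hyaluronan, by 1.52 (SE 0.278), AQP9 by 1.61 (SE 0.371, and 2.43 without Sema-2), CDH1, E-cadherin, by 1.00 (SE 0.173), DUSP5, a MAP kinase phosphatase, by 0.99 (SE 0.240) and GADD45B, a stress sensor, by 0.83 (SE 0.157). TNFAIP6, AQP9, DUSP5 and GADD45B did not pass among cells without a UMI of the MMP7 group. CDH1 did not pass at a threshold of 60, with library 1 alone or with no replicate block.

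**Figure D5:**
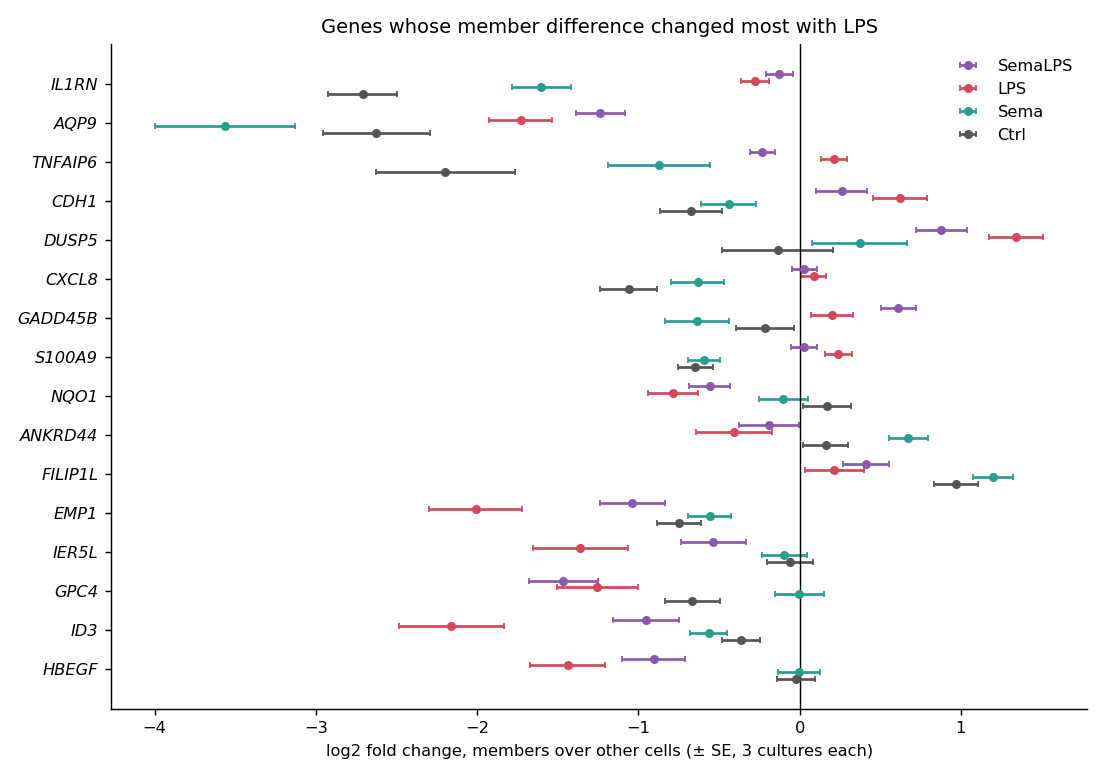
Log2 fold change of members over other cells (points, with SE, 3 cultures each) in SemaLPS, LPS, Sema and Ctrl cultures for the 8 genes with the largest upward and the 8 with the largest downward change with LPS. IL1RN lies at −0.13 in SemaLPS and −2.71 in Ctrl, and HBEGF is near 0 without LPS and negative with it.

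For other genes the member difference moved downward with LPS. HBEGF, a ligand of the EGF receptor, had 3.08, 12.6 and 12.0 CPM in members of LPS cultures against 20.7, 18.0 and 30.1 CPM in their other cells, and 46.1, 61.8 and 53.2 CPM in members of Ctrl cultures against a mean of 55.0 ± 8.17 CPM in their other cells (SD, n = 3). The LPS classes did not overlap and the Ctrl classes did, and the change was −1.16 (SE 0.179, edgeR adjusted p 5.65e-05). The HBEGF change did not pass with library 2 alone or with no replicate block. ID3, an inhibitor of basic helix-loop-helix factors, had 3.59, 0.789 and 4.01 CPM in members of LPS cultures against 10.96, 11.4 and 17.8 CPM in their other cells, a change of −1.09 (SE 0.226) that did not pass among cells without a UMI of the MMP7 group (−0.39). GPC4, a glypican, changed by −1.03 (SE 0.211), IER5L by −0.87, the membrane protein EMP1 by −0.87, FILIP1L by −0.77, ANKRD44 by −0.72 and NQO1, a quinone reductase, by −0.71. FILIP1L was higher in members with and without LPS, by 0.22 in LPS and 0.97 in Ctrl cultures. These 6 did not pass in that subset, where EMP1 changed sign (0.33). EMP1 also lost its call without culture Sema-2, ANKRD44 without Sema-1, SemaLPS-1 or LPS-3, and IER5L without SemaLPS-1 or Ctrl-2. CIITA, CD1C, RUNX3 and C1QA showed no change with LPS that passed.

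Semagacestat changed the member difference of 1 gene (0.00672% of 14881, while 756 had an unadjusted p under 0.05 and DESeq2's Wald test also gave 1). ALDH1A2, an enzyme of retinoic acid synthesis, lies below the 20 CPM that the naming rule asks for and is named because it was the only call. It had 9.41, 11.3 and 10.3 CPM in members of Sema cultures and 5.72, 6.86 and 12.8 CPM in members of SemaLPS cultures, against 3.84, 6.87 and 5.06 CPM in Ctrl and 4.62, 0.789 and 4.01 CPM in LPS cultures. Other cells had 7.93, 13.5 and 19.2 CPM (lowest, median and highest over all cultures), and members were higher than other cells in only 2 cultures. Within members alone, ALDH1A2 did not pass for Sema against Ctrl (1.00 on the log2 scale) or SemaLPS against LPS (1.22). The change in its difference between members and other cells was 1.66 (SE 0.271, edgeR adjusted p 0.0024) and rested on 151 UMIs in all members. The call was lost at a threshold of 30 or 60, with the stricter hashtag rule, with library 2 alone, after thinning to 5000 UMIs, without cells of the MMP7 group and with no replicate block, between 0.95 and 1.84, so the genes counted under those settings did not include it. Leaving out culture Ctrl-3 raised the count of such genes to 30, the widest move among the cultures left out in turn.

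Within members, LPS against Ctrl changed 2558 of 9521 tested genes (26.9%), 1303 upward (13.7%) and 1255 downward (13.2%). Members of LPS cultures had 294.1, 333.6 and 339.4 CPM of the chemokine CCL20, and members of Ctrl cultures had 5.99, 4.25 and 4.31 CPM. TNFAIP6 averaged 220.3 ± 52.7 CPM in members with LPS and 1.29 ± 1.13 CPM in Ctrl members, CXCL8 averaged 1234 ± 159.9 CPM with LPS and 22.9 ± 3.36 CPM in Ctrl members, and LAMP3, a marker of mature dendritic cells, 141.0 ± 19.8 CPM with LPS and 2.18 ± 1.34 CPM in Ctrl members (SD, n = 3). TNIP3, an inhibitor of NF-κB signalling, FEZ1, LINC02605 and the chemokine CXCL10 were the other large rises. CXCL10 had 19.4, 58.3 and 209.8 CPM in LPS cultures 1, 2 and 3, with LPS-3 far above the others, and its log2 fold change of 6.63 was 5.39 without that culture. Among the falls, ID3 averaged 2.83 ± 1.78 CPM in LPS members and 42.5 ± 11.4 CPM in Ctrl members (−3.91 on the log2 scale), and CYSLTR1, a leukotriene receptor, 6.52 ± 5.85 CPM in LPS members and 71.8 ± 6.66 CPM in Ctrl members (−3.20, and −4.48 without LPS-1). SPRY2, HHEX, FFAR4, SRGAP3, EMP1 and AL034397.3 fell by between 3.06 and 3.67, and HHEX by 3.99 without LPS-2. CIITA did not pass, at 13.2 ± 1.83 CPM in LPS members and 17.5 ± 1.84 CPM in Ctrl members (−0.39, edgeR adjusted p 0.317), nor did HLA-DOA (−0.25), while CD1C fell by 1.22 (edgeR adjusted p 0.00346).

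Semagacestat called 1 gene in members with each background (0.0105% of 9521). Between Sema and Ctrl members the unadjusted p was under 0.05 for 459 genes, DESeq2 called 3 genes, and edgeR's count was 0 to 3 with each culture left out in turn. CCL20 averaged 130.7 ± 33.4 CPM in SemaLPS members and 322.4 ± 24.7 CPM in LPS members (−1.27, edgeR adjusted p 2.81e-05), the lone call of 9521 genes, with 360 genes at an unadjusted p under 0.05 and 1 call by DESeq2. The 3 SemaLPS cultures, with 169.2, 112.8 and 110.0 CPM, lay below the 3 LPS cultures, and the call held on leaving out each culture in turn but not with library 1 alone or a threshold of 60.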

How the data were processed

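Gene and hashtag UMIs of 2 pooled droplet libraries (12 cultures) were used as the raw counts per barcode that the authors deposited. Per the submitters' processing notes, Cell Ranger 3.0.2, Seurat 4.1.1 and hg38 were used, while the file headers name Cell Ranger 6.0.1, with an annotation release not given in the sources used here. A barcode was kept with a top hashtag of at least 30 UMIs and 3 times the next, 1000 genes or more, and no more than 10% of UMIs from mitochondrial genes. This left 16937 of 28943 barcodes (24662 had 1 hashtag) and 537241463 of 900761329 UMIs. The hashtag rule removes doublets between cultures when their tags are within 3-fold of each other, so those with less equal tags can remain. Doublets within a culture were not removed. Members and gene lists were chosen with earlier results of these data known.

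UMIs were summed per culture and class, 1067492 to 3584903 for members and 33633899 to 59047710 for other cells. The 9 rule genes stayed out of tests and library sizes. edgeR 4.0.16 (R 4.3.3) fitted the culture as a block and 1 member effect per condition, with TMM scaling, an adjusted p threshold of 0.05 and SE taken as the fold change over the square root of F. A second fit compared conditions within members. The method was tested on simulated data. Shares were compared by exact permutation (scipy 1.17.1), and binomial intervals are exact and cover counting error only. Named genes are the 15 largest rises and falls with at least 20 CPM in the higher class and 1 direction in every culture (8 for other comparisons), up to 3 genes per list and all class II genes and regulators; others are said to be chosen later. Alternatives were other thresholds, hashtag rules, libraries, depths, scalings, DESeq2 1.42.0, and each culture left out. Some genes are not reported here.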

Additional observations from a re-analysis of the deposited data

Results flagged for a closer look

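A change with LPS in the difference between members and other cells passed the test for 141 genes, and a change with semagacestat for 1, in the interaction terms of edgeR's fit. The LPS change was upward on the log2 scale for IL1RN (1.95), AQP9 (1.61), TNFAIP6 (1.52), CDH1 (1.0), DUSP5 (0.99), CXCL8 (0.9), GADD45B (0.83), S100A9 (0.75) and BCL2A1 (0.66). It was downward for HBEGF (-1.16), ID3 (-1.09), GPC4 (-1.03), IER5L (-0.87), EMP1 (-0.87), FILIP1L (-0.77), ANKRD44 (-0.72), NQO1 (-0.71) and LPL (-0.34). LPL lost its call without culture Ctrl-2, LPS-3 or SemaLPS-3. The semagacestat change was 1.66 for ALDH1A2. Of 4 groups of cultures tested for a share of members that stood apart, 0 held one.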

How the results depend on the processing

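Calls for members against other cells (2023) were 1259 with library 1 alone, 963 with library 2 alone and 862 without cells carrying a UMI of MMP7, TIMP3, FBP1 or CRABP2, and 1787 to 2236 with each culture left out. Of 101 named genes 98 kept their direction throughout, 95 kept their call without each culture and 62 kept it in every setting. Among 18 named LPS changes, 17 kept their direction throughout, 14 kept their call without each culture and only 1, S100A9, kept it in every setting. Library 2 alone kept 4 of these 18 calls, and the fit with no replicate block kept 5. LPS changes (141) numbered 62 with the top hashtag at 10 times the next, 68 and 29 in libraries 1 and 2, 90 in cells of 20000 to 50000 UMIs, 26 without cells of the MMP7 group, 77 without the cultures numbered 1, and 125 to 198 with each culture left out. Semagacestat changes (1) numbered 4 at a threshold of 30, 12 at 60, 0 at the stricter hashtag rule, 3 in either library, 3 at 20000 to 50000 UMIs, 2 with few cell cycle UMIs, 5 without the MMP7 group, 32 without the cultures numbered 1, 3 with size factors, 31 with no filter, and 1 to 30 with each culture left out (30 without Ctrl-3).

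Within members, LPS against Ctrl (2558) gave 1131 at a threshold of 60, 1550 and 1569 in libraries 1 and 2, and 2060 to 2552 with each culture left out. Sema against Ctrl (1) gave 3 at the stricter hashtag rule, 0 in library 2, at 20000 to 50000 UMIs, after thinning to 5000 UMIs or with few cell cycle UMIs, 6 without the MMP7 group, 5 without the cultures numbered 1, 3 by DESeq2, 31 with no filter, and 0 to 3 with each culture left out. SemaLPS against LPS (1) gave 0 at a threshold of 60 and in library 1, 2 after thinning, 3 without the MMP7 group, 2 without the cultures numbered 1, 30 with no filter, and 1 to 2 with each culture left out. The LPS difference in share (−0.059 points) was 0.294 at a threshold of 60, 0.201 in library 1, 0.161 at 20000 to 50000 UMIs, 0.093 after thinning, 0.191 without the MMP7 group and −0.76 to 0.382 with each culture left out, and at most 5% mitochondrial UMIs gave −0.747 and, for semagacestat (0.779), 0.205. The semagacestat difference was 0.161 to 1.303 with each culture left out. Directions turned for LAMP3 in library 1 (−0.12), for TYMS with few cell cycle UMIs (0.16), and without the MMP7 group for LYZ (0.02) and the LPS change of EMP1 (0.326). The cause was not tested.

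Same-numbered cultures of different conditions correlated at −0.019 to 0.348 over 2608 genes, below 0.1 in some pairs. Cultures of different number and condition correlated at −0.335 to 0.077, and 12 of 12 cultures correlated best with their own number. The main fit within members and the main share tests nevertheless left the numbers out, since the labels do not state what they stand for. With the number as a replicate block, Sema against Ctrl gave 8 calls, SemaLPS against LPS 3 and LPS against Ctrl 2835, and shares permuted within numbers gave exact p of 0.969 for LPS and 0.25 for semagacestat. With no replicate block, condition and class alone gave 52 LPS changes and 0 semagacestat changes. Fits at most 5% mitochondrial UMIs were not run, since 0 cultures kept 10 members. At a threshold of 60 the fits lacked culture Ctrl-3, and at the stricter hashtag rule LPS-3. The stricter rule kept 472 of 1293 cells and 5 of 37 members in LPS-3, and 545 of 1144 cells and 21 of 41 members in Ctrl-3. Every other culture kept most of its cells. With 37 to 124 members per culture, depth limits genes of few UMIs.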
